A study of Mus musculus with 24 samples.

Results

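The comparison described here set T11 cells given FPP-1746-Omomyc against T11 cells given unfused Omomyc, both at 5 µM and both collected after 6 h. The 2 groups differ, per the labels, only in the peptide FPP-1746, which is joined to Omomyc in the fusion. All genes of the deposited table entered that had a mean of at least 1 FPKM over its 8 columns, which is 10262 of 23235. FPKM is the number of sequenced fragments of a gene scaled by transcript length and library size. The group columns used were 2 of 8, with 6 of the 24 samples behind them.

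T11 is a line of mouse mammary tumour cells, claudin-low in type, and per the labels all samples carried a luciferase gene, so every group shares it. The other groups used for reference were PBS at 3 h and 6 h, for which no dose applies, FPP-1746 alone at 5 µM at both times, and Omomyc and the fusion at 5 µM at 3 h. Each group had 3 samples titled as biological replicates, all from this 1 line in culture. The 3 fusion samples titled 6 h carry a treatment tag of 3 h; their titles and the table's column give 6 h, which was followed. Each column is the mean of its 3 samples, so no spread between replicates could be seen, no test was possible, and every difference below has no replicate check.

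MYC is a transcription factor that pairs with MAX, binds E-box DNA and drives genes of growth and division. Omomyc is an altered MYC dimerisation domain that pairs with MYC, MAX or itself and competes with MYC on DNA. Many proteins cross the plasma membrane poorly by themselves, and cell-penetrating peptides are short carriers joined to a cargo to bring it into cells. Uptake of Omomyc or of the fusion was not measured in the data used here. MYC is opposed on the same DNA by the MXD and MNT proteins, which also pair with MAX and repress.

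Differences are given as the log2 ratio of FPKM + 1, fusion over Omomyc, which understates the change of low genes. Genes whose ratio reached 2-fold in either direction are called higher or lower. At 6 h, 991 of the 10262 genes were called (9.66%), 676 higher (6.59%) and 315 lower (3.07%), and the median ratio over all tested genes was -0.02. Among the calls 68.2% were higher; with every column scaled to the same median that share was 56.7%. Short RNAs swing widely in FPKM, and the 140 tested records of small RNAs held 12 of the 15 highest and all 15 of the lowest places. With them left out, 926 of 10122 genes were called (9.15%), 644 higher (6.36%) and 282 lower (2.79%). The unfused peptides differed far less from their references in the same table. Omomyc against PBS at 6 h gave 70 called records (0.682%), of which 6 of 10122 were not small RNAs (0.0593%). FPP-1746 against Omomyc gave 50 (0.487%), of which 3 were not small RNAs (0.0296%). These comparisons share columns with the one described.

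The level filter itself favours genes that are high with the fusion: 100 of the 10122 passed it only through the fusion columns, and 44 of these were called higher and 0 lower. Over the other 10022 genes 600 were higher and 282 lower. Such members are named beside their lists below.

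The median level of the genes called higher was 7.25 FPKM with Omomyc and 20.2 FPKM with the fusion, while over all 10122 genes the medians were 14.4 and 15.3 FPKM. The genes called lower had medians of 26.7 FPKM with Omomyc and 10.5 FPKM with the fusion. Because the calls were made on these same columns, these levels only describe the called genes. Most calls were moderate in size. Leaving out predicted genes as well, 518 genes were higher by a log2 ratio of 1 to 2, 69 by 2 to 3 and 11 by more than 3. On the lower side the counts were 249, 11 and 1.

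**Figure D1:**
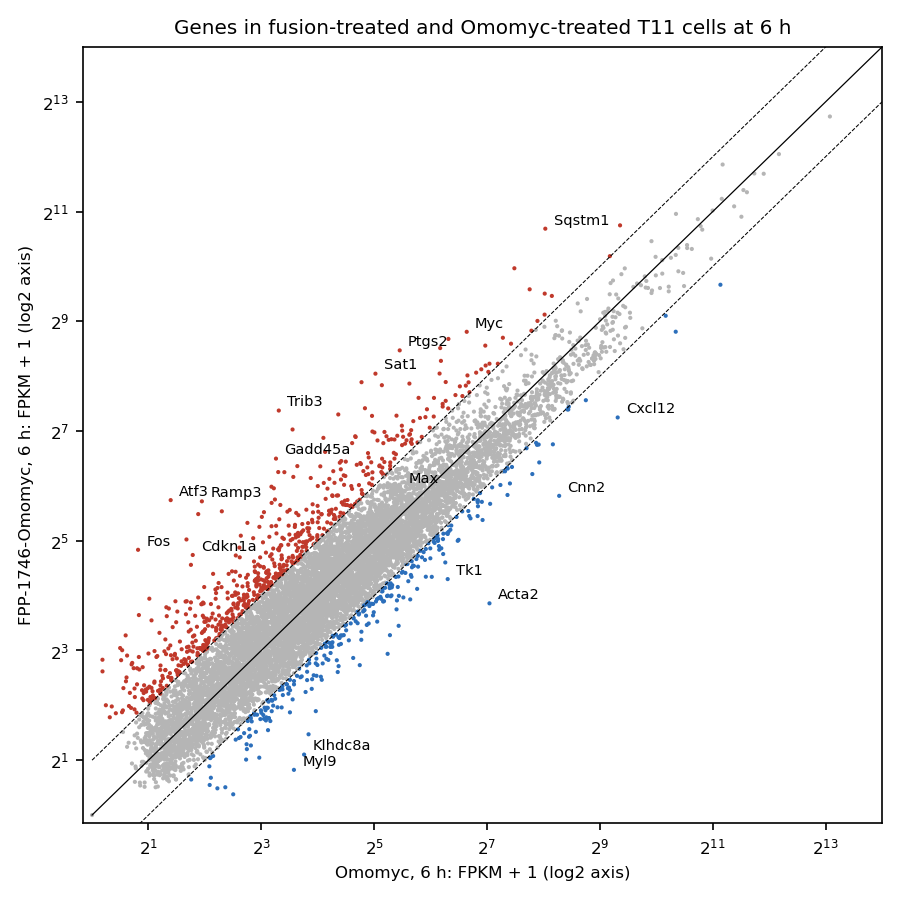
Each point is 1 of 10122 genes, small RNA records left out; the x axis is FPKM + 1 with Omomyc and the y axis FPKM + 1 with the fusion, both at 6 h on log2 axes. The solid line marks equal values and the dashed lines 2-fold; the 644 red genes were called higher and the 282 blue genes lower, and Atf3 and Acta2 lie farthest from the line on their sides.

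Promoter stretches of 5 genes are shown because each holds letters of 1 of 2 sites: the ATF4 site in genes known to be ATF4 targets, of which Atf3 and Chac1 were higher and Asns just missed 2-fold, and the CArG box in contractile genes that were lower. ATF4 binds a composite C/EBP-ATF site, searched here as TGATGNAAN, and serum response factor binds the CArG box; both strands were read in the 250 bases before each RefSeq gene start (GRCm38.p6, not the build of the table). Capitals mark the match, and each stretch is 120 bases, 5′ to 3′ on the gene's strand. Atf3 (chr1:191183381-191183500, minus strand) and Asns (chr6:7693210-7693329, minus strand) encode a stress-induced transcription factor and asparagine synthetase, and Chac1 (chr2:119350992-119351111, plus strand) a glutathione-degrading enzyme. Myl9 (chr2:156775248-156775367, plus strand) and Cnn2 (chr10:79988480-79988599, plus strand) encode a myosin light chain and a calponin.
Atf3: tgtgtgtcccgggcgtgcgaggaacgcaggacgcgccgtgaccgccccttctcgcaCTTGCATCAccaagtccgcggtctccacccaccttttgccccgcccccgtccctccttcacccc
Chac1: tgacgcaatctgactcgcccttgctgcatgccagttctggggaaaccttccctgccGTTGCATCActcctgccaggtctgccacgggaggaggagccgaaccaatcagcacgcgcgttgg
Asns: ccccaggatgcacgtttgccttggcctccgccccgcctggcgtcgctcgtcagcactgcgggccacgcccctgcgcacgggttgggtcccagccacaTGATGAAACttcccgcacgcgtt
Myl9: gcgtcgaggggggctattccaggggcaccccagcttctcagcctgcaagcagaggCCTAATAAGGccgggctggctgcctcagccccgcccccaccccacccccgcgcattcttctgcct
Cnn2: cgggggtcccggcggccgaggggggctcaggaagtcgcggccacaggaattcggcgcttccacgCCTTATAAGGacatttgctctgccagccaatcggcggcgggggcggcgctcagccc

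The letters of the ATF4 site were found in 3.68% of the 625 promoter windows of genes called higher, in 0 of 268 windows of genes called lower, in 1.84% of 9395 windows of all tested genes and in 3.44% of all 32851 windows. They lay in 4 of 16 windows of the ATF4 pathway factors described below (Chac1, Fgf21, Nupr1 and Vldlr) and in 3 of 12 of the tRNA synthetases (Gars, Aars and Tars). The CArG box was found in 6 of 19 windows (31.6%) of the contractile and actin genes (Myl9, Acta1, Cnn2, Actg1, Vcl and Srf), against 1.25% of tested windows. It was also in 4 of 18 windows of the EGR, NR4A, IER and KLF genes, a group that was higher. The shares of windows with a CArG box were 2.24% for all genes called higher and 2.99% for all called lower. The E-box CACGTG, the site of MYC and its relatives, was in 10.7% of windows of higher genes, 5.6% of lower genes and 8.72% of tested genes. For the other motifs the shares in higher, lower and tested windows were 7.20%, 2.24% and 4.23% for the AP-1 site TGANTCA, 3.36%, 2.61% and 2.77% for the CRE TGACGTCA, and 26.6%, 32.8% and 30.5% for the metal response element TGCACNC or TGCGCNC. Over all 32851 windows the shares were 6.02% for the E-box, 6.75% for the AP-1 site, 1.55% for the CRE, 1.47% for the CArG box and 21.4% for the metal response element. Promoters were matched by symbol for 7334 of the tested genes. These are matches of letters and do not show that a factor was bound.

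Immediate-early genes, which cells switch on within minutes of a stimulus, included Atf3, Fos and Fosb among the 15 highest ratios. Atf3 (chromosome 1, 192994176 to 193007212 in mm9) stood at 1.31 FPKM under PBS, 1.63 under Omomyc, 1.28 under FPP-1746 and 52.5 under the fusion at 6 h, a log2 ratio over Omomyc of 4.35. Fos, an AP-1 subunit (chromosome 12, 86814851 to 86818219), stood at 0.370, 0.760, 0.340 and 27.5 FPKM in the same order, a ratio of 4.02. The fusion column lay far above the other 3 in both genes, and for Fos the Omomyc column was above PBS and FPP-1746 at these low levels. Fosb, another AP-1 subunit, had that order too: 1.44 FPKM under PBS, 3.92 under Omomyc, 1.69 under FPP-1746 and 45.4 under the fusion, a ratio of 3.24.

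The AP-1 list had 8 of 10 tested members called higher and none lower, with a median ratio of 1.78. Jun (0.67) and Jund (0.95) did not pass. Fos met the level filter only through the fusion columns, and without it 7 of 9 were higher, with a median of 1.66. Maff, a small MAF protein, went from 24.3 to 119 FPKM (2.24). All 15 of the EGR, NR4A, IER and KLF factors were higher, with a median of 2.02. Klf4, a zinc-finger factor, stood at 8.06 FPKM with Omomyc and 62.3 with the fusion (2.81). Egr1, the founding early growth response gene, stood at 2.37 and 22.6 FPKM (2.81). The orphan nuclear receptor genes Nr4a1 and Nr4a3 had ratios of 2.60 and 2.65, Nr4a3 from 0.136 FPKM with Omomyc to 6.12. Nr4a3 and Egr2 met the level filter only through the fusion columns; without them 13 of 13 were higher.

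Some genes of MAP kinase and EGF receptor feedback were also higher, and signalling itself was not measured. Of 15 inhibitors of MAP kinase signalling, 5 were higher and 1 lower, with a median of 0.89. Dusp4, a phosphatase that switches off MAP kinases, went from 13.7 to 69.7 FPKM (2.27), Dusp10 from 11.3 to 44.5 (1.89), Dusp1 from 11.1 to 37.1 (1.66) and Spry2 from 3.72 to 12.8 (1.55). Spred3, an inhibitor upstream in the pathway, was lower, from 6.00 to 2.49 FPKM (-1.0). Among 4 tested genes of EGF receptor ligands and their feedback, 3 were higher: the ligands Areg (2.16 to 13.8 FPKM, 2.23) and Ereg (2.95 to 11.1, 1.62) and the receptor inhibitor Errfi1 (76.1 to 237, 1.63). Their median was 1.62, and 0.0689 with no level filter, which adds the members below it.

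Ramp3, a partner protein of G-protein-coupled receptors, was among the largest differences, at 0.747 FPKM under PBS, 2.85 under Omomyc, 1.56 under FPP-1746 and 51.6 under the fusion (3.77). The table gives it a locus shared with another gene, so its reads may be mixed with a neighbour's. Rgs2, a brake on G-protein signalling, stood at 2.19 with Omomyc and 31.5 FPKM with the fusion (3.35), while Rgs19 was lower, 47.2 against 22.9 (-1.01). Of the 7 RAMP and RGS genes tested 2 were higher and 1 lower, with a median of 0.53. Regulators of mRNA decay had 4 of 13 higher and none lower, with a median of 0.68: Btg1 (2.06), and Zfp36 (1.75), Zfp36l1 (1.55) and Zfp36l2 (1.22), whose proteins bring AU-rich mRNAs to decay. Btg2 met the level filter only through the fusion columns, and without it 4 of 12 were higher, with a median of 0.58.

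**Figure D2:**
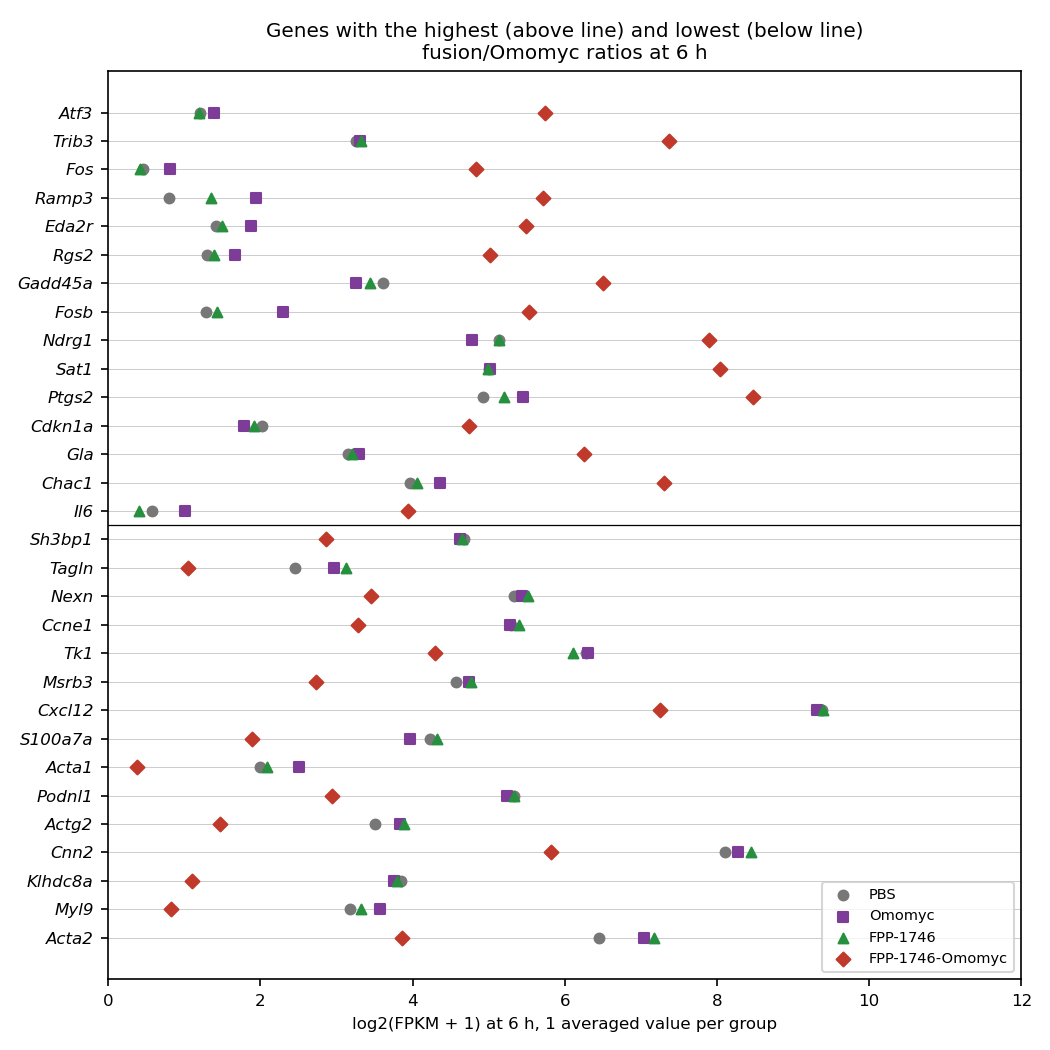
The 15 genes with the highest and the 15 with the lowest ratios past 2-fold, small RNA and predicted records left out; the x axis is log2(FPKM + 1) at 6 h and each marker is 1 averaged group. In all 15 higher genes the fusion marker lies to the right of the other 3 groups, and in all 15 lower genes to the left.

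ATF4 is translated when the kinases of the integrated stress response slow general protein synthesis, and it switches on genes for amino acid supply and, with CHOP, for stress outcomes. Of its 14 tested pathway factors, 13 were higher and none lower, with a median ratio of 2.24, the highest median of the 45 lists. Trib3, a pseudokinase (chromosome 2, 152163161 to 152169796), stood at 8.60 FPKM under PBS, 8.91 under Omomyc, 9.05 under FPP-1746 and 165 under the fusion, a ratio of 4.06. Chac1, whose promoter stretch is shown above, stood at 14.6, 19.6, 15.7 and 157 FPKM (2.94). Ddit3, which encodes CHOP, went from 27.6 to 170 FPKM (2.58) at a shared locus, and Ppp1r15a, which restores translation, from 16.5 to 97.3 (2.49). Atf4 itself was higher by 1.48. Stc2 alone did not pass, at 0.48. Fgf21 met the level filter only through the fusion columns, and without it 12 of 13 were higher, with a median of 2.17.

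The amino acid supply genes lay on the same side with smaller ratios. All 13 amino acid synthesis enzymes had ratios above 0, and 3 passed: Gpt2, an alanine aminotransferase (20.4 to 86.6 FPKM, 2.04), Cth of cysteine synthesis (36.2 to 119, 1.69) and Mthfd2 of mitochondrial folate metabolism (99.6 to 257, 1.36). Their median was 0.65. Asns, shown above for its promoter, fell just short at 232 and 458 FPKM (0.98). Of 11 amino acid transporters 6 were higher and none lower, with a median of 1.23. Slc7a11, which imports cystine (chromosome 3, 50168858 to 50247535), stood at 1.77 FPKM under PBS, 1.79 under Omomyc, 1.69 under FPP-1746 and 13.9 under the fusion (2.42). The glycine transporter gene Slc6a9 had the largest ratio of that list, 11.5 to 81.2 FPKM (2.72, shared locus), and the cationic amino acid transporter gene Slc7a1 went from 21.6 to 85.9 (1.94).

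The cytosolic tRNA synthetases, which charge tRNAs, were split. Of 20, 4 were higher: Cars (1.35), Tars (1.22), Aars (1.18, shared locus) and Sars (1.17). None was called lower, but 7 had ratios below 0, down to -0.69 for Kars, and the median was 0.38.

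Among other protein-stress programmes, the ER and heat-shock chaperone lists were split in direction, while most proteasome subunits lay below 0 within 2-fold. The ER chaperones and unfolded protein response genes had 3 of 20 higher and 1 lower, with a median of -0.25. The 3 were Dnajb9 (7.05 to 42.2 FPKM, 2.43), Herpud1 (26.2 to 83.3, 1.63) and Xbp1 (20.8 to 49.6, 1.21), which encode an ER co-chaperone, an ER degradation factor and a transcription factor of the unfolded protein response. Sdf2l1 was lower (20.2 to 8.68, -1.13), and Hspa5, the main ER chaperone, had a ratio of -0.14. Of 14 heat-shock chaperones 1 was higher, Hspa4l (1.82), and none lower, with a median of -0.13. None of the 35 proteasome subunits was called, and 32 had ratios below 0, with a median of -0.41. Over all tested genes 5256 of 10262 had ratios below 0, and 6.59% were called higher and 3.07% lower.

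Oxidant, metal and lysosomal genes each had a few large members. Of 19 NRF2 and glutathione genes, 5 were higher and none lower, with a median of 0.16. Hmox1, which breaks down haem, stood at 44.9 FPKM under PBS, 34.2 under Omomyc, 43.2 under FPP-1746 and 227 under the fusion (2.70); Slc7a11 is also in this list, and Osgin1 (1.11), Srxn1 (1.08) and Txnrd1 (1.02) passed narrowly. Of 14 metallothionein and zinc transporter genes 4 were higher and none lower, with a median of 0.38: the zinc exporter gene Slc30a1 (2.02, shared locus), Mt2 (31.1 to 125 FPKM, 1.97), Mt1 (215 to 766, 1.83) and Slc30a4 (1.38). Of 23 lysosome, autophagy and mTORC1 brake genes 6 were higher and none lower, with a median of 0.63. Sqstm1, the autophagy receptor p62 (chromosome 11, 50013654 to 50024292), reached 1649 FPKM with the fusion from 261 with Omomyc (2.66). Map1lc3b, which encodes an autophagosome protein, went from 18.4 to 76.1 FPKM (1.99), and the folliculin complex genes Fnip1 and Flcn had ratios of 1.35 and 1.24. Gla, a lysosomal galactosidase outside the lists, went from 8.85 to 75.2 FPKM (2.95).

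Among 17 tested p53 target genes 7 were higher and none lower, with a median of 0.96. Btg2 met the level filter only through the fusion columns, and without it 7 of 16 were higher, with a median of 0.89. Cdkn1a, the CDK inhibitor p21 (chromosome 17, 29227931 to 29237667), stood at 3.05 FPKM under PBS, 2.45 under Omomyc, 2.78 under FPP-1746 and 25.7 under the fusion (2.96). Eda2r, a receptor of the TNF receptor family (chromosome X, 94529180 to 94572548), stood at 1.68, 2.68, 1.82 and 43.8 FPKM (3.60). In both genes only the fusion column stood far from PBS. Gadd45a (8.58 to 89.3 FPKM, 3.24, shared locus) and Sesn2 (8.98 to 41.0, 2.07), which respond to DNA damage and nutrient stress, followed; Sesn2 is also in the ATF4 list. Bax (-0.24) and Ccng1 (-0.90), also p53 targets, did not pass. The list holds genes known as p53 targets, and whether p53 acted in these cells was not tested. Of the other CDK inhibitors none passed, so 1 of 5 was higher; their median was 0.03 and was -0.06 with columns scaled to one median. Of 13 BCL2 family genes 1 was higher, the pro-death BH3-only gene Bbc3 (4.69 to 13.3 FPKM, 1.33), and none lower, with a median of 0.13. For comparison, 6.59% of all tested genes were called higher and 3.07% lower.

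The chemokine and cytokine genes went in both directions. Of 13 tested, 7 were higher and 1 lower, with a median of 1.17. The median was 0.92 without Il6 and Il11, which met the level filter only through the fusion columns, leaving 5 of 11 higher, and it turned to -0.00956 among members with a mean of at least 5 FPKM. Il6 stood at 0.492 FPKM under PBS, 1.02 under Omomyc, 0.328 under FPP-1746 and 14.4 under the fusion (2.93). Il11, of the same cytokine family, went from 0.412 with Omomyc to 7.25 FPKM (2.55), Lif from 6.88 to 24.9 (1.72), and the neutrophil chemokine gene Cxcl1 from 48.3 to 232 (2.24). Cxcl12, the ligand of CXCR4 (chromosome 6, 117118553 to 117131386), was the 1 called lower: 665 FPKM under PBS, 636 under Omomyc, 674 under FPP-1746 and 151 under the fusion (-2.07). It was one of the most abundant of the lower genes, and the 3 columns without the fusion lay close together. Csf1 (339 to 209 FPKM, -0.70) and Cx3cl1 (58.7 to 39.5, -0.56) also had ratios below 0, as did Ccl5 (-0.05) and Cxcl5 (-0.01).

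Around these cytokines, prostaglandin and NF-kB genes were mostly within 2-fold, while most genes for Toll-like receptor signalling were past it. Over all tested genes 9.66% were called. Ptgs2, which encodes the inducible cyclooxygenase, went from 42.8 to 354 FPKM (3.02), but it was the only 1 of 7 prostaglandin genes called, and their median was -0.31. Of 11 NF-kB subunits and inhibitors 1 was higher, Nfkbib (1.52, shared locus), and none lower, with a median of 0.59. Of 8 genes for Toll-like receptor signalling 4 were higher and 1 lower, with a median of 0.74. They were the lipopolysaccharide receptor genes Cd14 (2.22), Ly96 (2.20 to 13.9 FPKM, 2.22) and Tlr4 (3.04 to 10.5, 1.51) and the adaptor gene Myd88 (1.15); the kinase gene Irak1 was lower (-1.06, shared locus). Cd14 stood at 12.9 FPKM under PBS, 24.5 under Omomyc, 13.3 under FPP-1746 and 118 under the fusion.

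Cd14 is also a macrophage marker. Of 8 such markers 2 passed the level filter, Cd14 and Cd68, and the 8 summed to 25.9 FPKM with Omomyc and 121 with the fusion at 6 h, over 11.2 to 15.3 FPKM in the PBS and FPP-1746 columns; nearly all of the fusion sum is Cd14. Of the defining markers of other cells, the 11 of epithelium summed to 0.214 to 0.612 FPKM over the 8 columns and the 5 of endothelium to 0.0815 to 0.182, with none at the level filter. Of 4 adipocyte markers Fabp4 passed the filter, and their sum lay between 1.67 and 2.76 FPKM. All 8 markers of mesenchymal tumour cells were tested and together summed to 8403 FPKM in the fusion column at 6 h, the lowest of the 8 columns. Their sum was 9539 FPKM with Omomyc at 6 h and highest with the fusion at 3 h, at 13159. In bulk RNA, fewer cells of a type and less RNA per cell cannot be told apart.

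Myc mRNA was higher with the fusion. Myc (chromosome 15, 61816896 to 61821916) stood at 106 FPKM under PBS, 98.7 under Omomyc, 109 under FPP-1746 and 447 under the fusion, a ratio of 2.17. Max, the shared partner, stood at 44.4, 42.9, 47.1 and 61.7 FPKM (0.51) and did not pass. Among the MAX partners that repress, Mnt was higher (5.11 to 28.3 FPKM, 2.26), as were Mxd4 (6.56 to 17.6, 1.30) and Mxi1 (8.60 to 20.0, 1.13), while Mxd3 was lower (20.3 to 7.69, -1.29, shared locus). In all, 4 of 11 genes of the network were higher and 1 lower, with a median of 0.71. Mxd1 met the level filter only through the fusion columns, and without it the median was 0.63.

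Functions that MYC is known to drive lay near or a little below the Omomyc level. None of 40 genes of RNA polymerase I and ribosome assembly was called, with a median of -0.18 and a range of -0.74 to 0.58. None of 70 cytosolic ribosomal protein genes was called either, with a median of -0.15. Of 18 purine and pyrimidine synthesis genes 3 were lower and none higher, with a median of -0.43: Prps2 (47.7 to 18.2 FPKM, -1.34), Cad (50.6 to 22.4, -1.14) and Gart (93.4 to 45.4, -1.03). Polyamine genes had 1 of 7 called, Sat1, which catabolises spermidine and spermine (31.5 to 263 FPKM, 3.02); their median was 0.07 and turned to -0.01 with columns scaled to one median. Odc1, the first enzyme of polyamine synthesis, had a ratio of -0.63. The record of the ribosomal RNA precursor, Rn45s, stood at 178 FPKM with Omomyc and 999.6 with the fusion; what it reflects was not tested.

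Cell cycle genes were on the lower side. Of 40 G1 and S phase genes 6 were lower and none higher, with a median of -0.34. Ccne1, cyclin E1 (chromosome 7, 38883003 to 38892509), stood at 38.4 FPKM under PBS, 37.8 under Omomyc, 41.1 under FPP-1746 and 8.71 under the fusion (-2.00). Tk1, the S phase thymidine kinase, stood at 76.8, 78.0, 67.7 and 18.7 FPKM (-2.00, shared locus). Rrm2, a ribonucleotide reductase subunit, went from 164 to 56.0 (-1.53) and Ccnd1, cyclin D1, from 242 to 85.1 (-1.50). Of 29 mitosis genes 28 had ratios below 0 and 4 were called, all lower: Birc5 (236 to 107 FPKM, -1.14), Kif20a (101 to 45.6, -1.13, shared locus), Top2a (159 to 76.0, -1.05) and Ccna2 (349 to 173, -1.01, shared locus). The mitosis median was -0.66. Histone records, of which 11 of 68 passed the level filter, had 1 higher, the linker histone gene Hist1h1c (1.60), with a median of 0.11. Hist1h2bg met the filter only through the fusion columns, and without it the median was 0.08. Among all tested genes 6.59% were called higher and 3.07% lower.

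With small RNA and predicted records left out, 5 of the 6 contractile and actin genes named below are among the 10 lowest ratios of all. Smooth muscle actin and its partners build contractile actin bundles, and in fibroblast-like cells they are set by serum response factor with its actin-sensing cofactors. Acta2, smooth muscle actin (chromosome 19, 34315581 to 34329826), stood at 86.2 FPKM under PBS, 131 under Omomyc, 143 under FPP-1746 and 13.5 under the fusion, a ratio of -3.18. Myl9 (chromosome 2, 156601200 to 156607393) stood at 8.05, 10.9, 9.0 and 0.770 FPKM (-2.75), and Cnn2 (chromosome 10, 79451345 to 79458145) at 274, 309, 349 and 55.4 FPKM (-2.46). In all 3 genes both unfused peptides lay above PBS and the fusion far below it. Of 22 contractile and actin genes 10 were lower and none higher, and the median was -0.87, the lowest of the 45 lists. The others named were Actg2 (-2.36), Acta1 (-2.12, from 4.66 to 0.300 FPKM), and Tagln (-1.92, from 6.80 to 1.07, shared locus). Zyx (0.19) and Mkl1 (0.27) alone had ratios above 0. Nexn, an actin-binding gene outside the list, went from 42.2 to 9.92 FPKM (-1.98).

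Other genes of the cytoskeleton and matrix were less uniform. The tubulin genes split, with 3 of 11 higher and 1 lower and a median of -0.36: Tubb3, the neuronal beta-tubulin, was 8.08 FPKM with Omomyc and 50.6 with the fusion (2.51), Tubb2a (1.46) and Tubb2b (1.28) followed, and Tuba1b was lower (-1.20). Of 12 YAP target and CCN genes 3 were lower and none higher, with a median of -0.14: Ankrd1 (222 to 73.3 FPKM, -1.59), Axl (169 to 65.0, -1.36) and Cyr61 (233 to 109, -1.09), while Ctgf stood at -0.03. Of 20 collagens and matrix proteins 2 were lower, Col8a1 (-1.25) and Thbs1 (240 to 107, -1.16), and none higher, with a median of -0.34. Matrix proteases and inhibitors had 3 of 12 higher, Adamts1 (1.64), Adamts4 (1.25) and Plat (1.24), and 1 lower, the inhibitor gene Timp2 (-1.03, shared locus), with a median of -0.03.

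Of 22 TGF-beta, BMP and ID genes 3 were higher and 1 lower, with a median of 0.21. Bambi met the level filter only through the fusion columns, and without it the median was 0.15. Inhba, an activin subunit, stood at 9.16 FPKM under PBS, 8.33 under Omomyc, 11.3 under FPP-1746 and 61.1 under the fusion (2.73). Skil (1.20) and Fst (1.06), which restrain SMAD and activin signalling, were higher, and Atoh8 was lower (10.4 to 2.66 FPKM, -1.64). Mesenchymal factors had 4 of 13 higher and none lower, with a median of 0.58: Pdgfra (1.23 to 6.46 FPKM, 1.74, at the level filter only through the fusion columns), Foxc2 (1.33), Snai2 (1.15) and Prrx1 (1.14). Without Pdgfra 3 of 12 of these factors were higher, with a median of 0.56. Vim, their best-known structural gene, had a ratio of -0.21. Of the remaining genes with the lowest ratios, Klhdc8a (12.5 to 1.15 FPKM, -2.66), Podnl1 (36.7 to 6.67, -2.30), S100a7a (14.6 to 2.72, -2.07), Msrb3 (25.8 to 5.65, -2.01, shared locus) and Sh3bp1 (23.7 to 6.28, -1.76) belong to no list here.

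**Figure D3:**
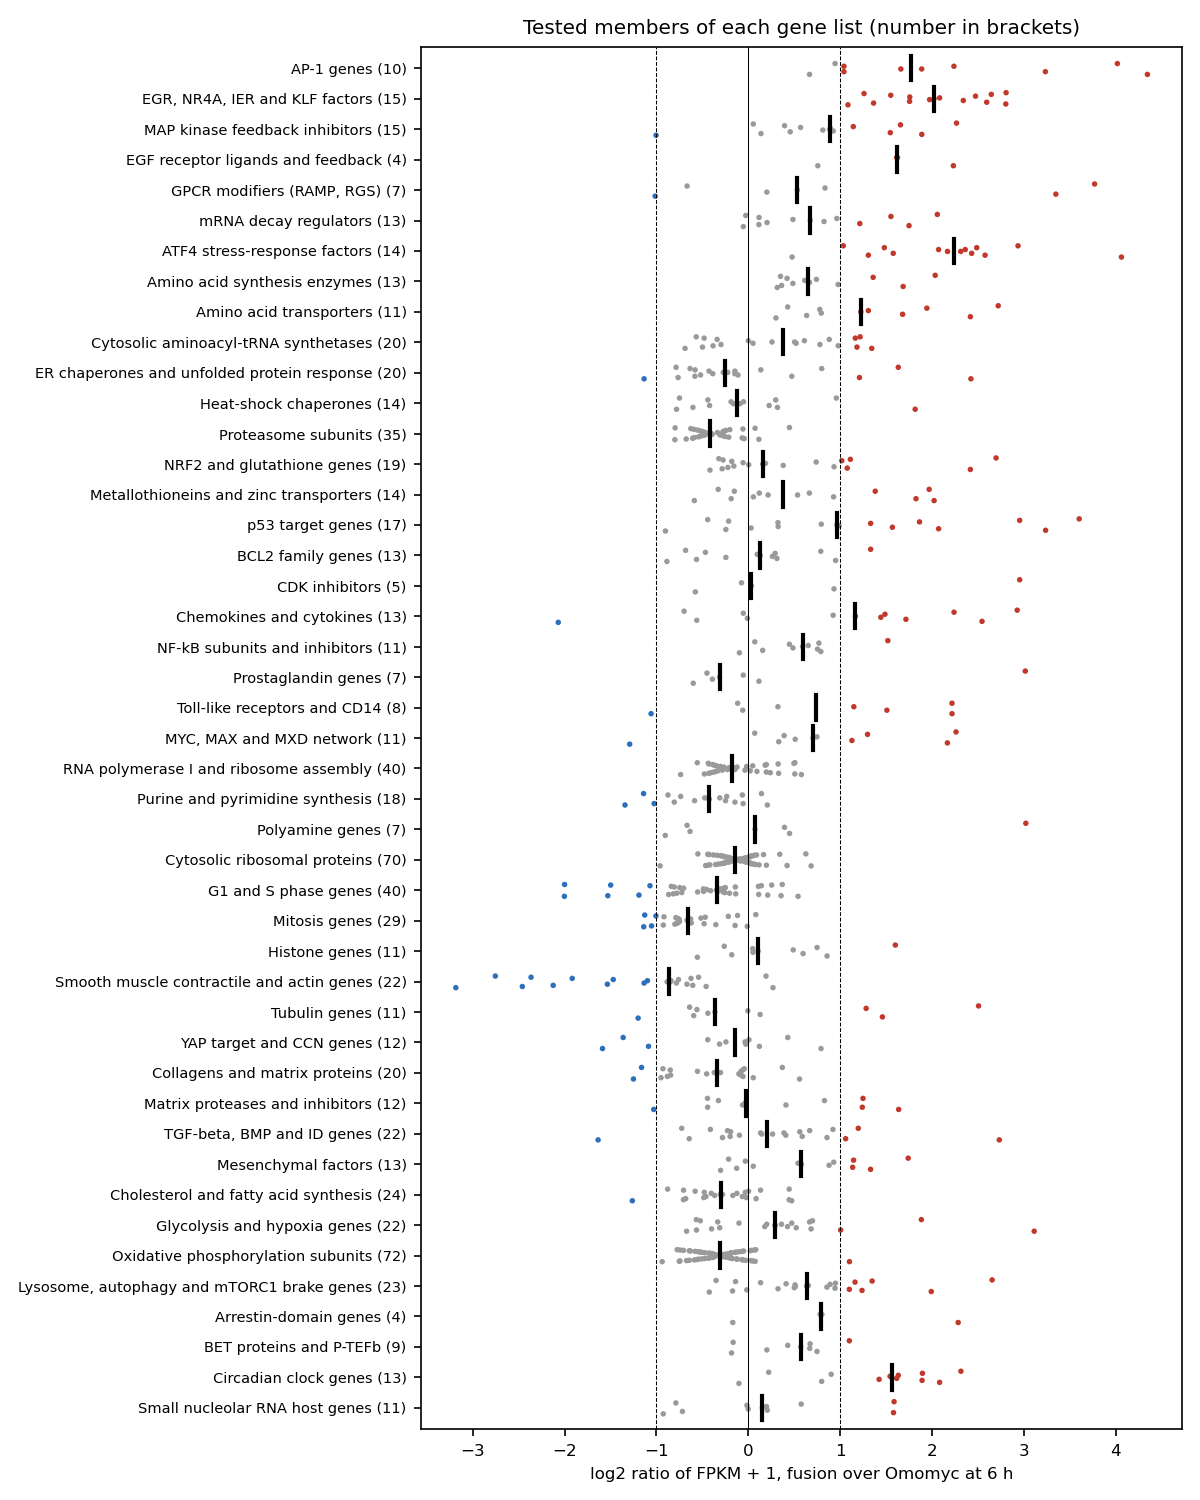
Each point is 1 tested member of a gene list, and the x axis is its log2 ratio of FPKM + 1, fusion over Omomyc at 6 h; black ticks are list medians, dashed lines mark 2-fold, and some genes are in more than 1 list. The ATF4 factors have the highest median (2.24) and the contractile and actin genes the lowest (-0.87), while ribosomal proteins, proteasome subunits and ribosome assembly genes all lie inside 2-fold.

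Beyond amino acid supply, the lists of cholesterol and fatty acid synthesis and of oxidative phosphorylation held 1 call each, and glycolysis and hypoxia genes 3. Over all tested genes 6.59% were higher and 3.07% lower. Of 24 cholesterol and fatty acid synthesis genes 1 was lower, Mvk of the mevalonate pathway (41.8 to 16.8 FPKM, -1.26), and none higher, with a median of -0.29. Glycolysis and hypoxia genes had 3 of 22 higher and none lower, with a median of 0.29: the stress-responsive gene Ndrg1 (26.4 to 236 FPKM, 3.11), the angiogenic factor gene Vegfa (41.1 to 154, 1.88) and Ankrd37 (1.01). Glycolytic enzymes such as Ldha (-0.31) and Aldoa (-0.40) did not pass. Of 72 oxidative phosphorylation subunits 64 had ratios below 0 and none was called lower; Cox6a2, a muscle-type subunit at a shared locus, was higher (1.11 to 3.53 FPKM, 1.10), and the median was -0.31.

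The circadian clock genes were higher as a group: 9 of 13 passed, none in the lower direction, at a median of 1.56. Nfil3 (9.10 to 49.3 FPKM, 2.32), the period genes Per2 (2.68 to 14.6, 2.08) and Per1 (2.86 to 13.4, 1.90) and Bhlhe40 (20.2 to 77.9, 1.89, shared locus) led. Members of the activating arm (Arntl, 1.62) and of the repressing arm (Cry1, 1.63) were both higher, and Clock (0.22) and Dbp (-0.10) did not pass. The E-box letters lay in 5 of 16 windows of the clock genes. Txnip, an arrestin-domain gene of glucose sensing, was the 1 of 4 in its list that was higher (0.538 to 6.50 FPKM, 2.29, shared locus), and the list median was 0.79. It met the level filter only through the fusion columns, and without it none of the other 3 was higher, with a median of 0.78. Brd2 was the 1 of 9 BET and P-TEFb genes that was higher (78.4 to 169, 1.10; list median 0.57). Of 11 hosts of small nucleolar RNAs, Snhg1 (1.59) and Snhg12 (1.58), both at shared loci, were higher and none lower, with a median of 0.15.

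The choice of reference mattered for some genes, among them genes in which Omomyc alone already stood apart from PBS. All 24 cholesterol and fatty acid genes were above PBS with Omomyc at 6 h, and all 24 with FPP-1746, with medians of 0.34 and 0.34, though none passed 2-fold. Sqle, squalene epoxidase, stood at 109 FPKM under PBS, 169 under Omomyc, 162 under FPP-1746 and 169 under the fusion. Mvd, of the mevalonate pathway, stood at 19.1, 27.7, 30.6 and 19.6. Sc4mol, a sterol demethylation enzyme, stood at 83.9, 126, 124 and 172, so its fusion value was 2-fold above PBS (1.03) but not above Omomyc (0.45). Over the list, the fusion had a median ratio of -0.01 to PBS and of -0.29 to Omomyc. These genes were named after their values were seen. The contractile genes showed the same offset, with 19 of 22 above PBS with Omomyc and 21 of 22 with FPP-1746, at medians of 0.19 and 0.28; 9 were lower than PBS with the fusion, against 10 lower than Omomyc. Of the named genes called against Omomyc, 7 were within 2-fold of PBS with the fusion: Foxc2 (0.96), Rbm12 (0.82), Cox6a2 (0.60), Ankrd37 (0.46), Ccna2 (-0.93), Top2a (-0.98) and Mvk (-0.995). For Ccna2 and Top2a Omomyc lay close to PBS (0.08 and 0.07), and their ratios only crossed the 2-fold line. That left 2 of the 29 mitosis genes lower than PBS, though the list median was -0.62 against PBS and -0.66 against Omomyc.

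Outside small RNAs the 6 genes past 2-fold between Omomyc and PBS were Fosb, Ramp3, Osbp2 (1.01 to 3.55 FPKM) and LOC100302567 (listed at 0 with PBS), which were higher with Omomyc, and Snhg9 (listed at 0 with Omomyc) and Gm20571, which were lower. Fosb, Ramp3 and Osbp2 stood above PBS with Omomyc and nearer to PBS with FPP-1746. Cd14, Nr4a1 (6.25 FPKM under PBS, 10.8 under Omomyc, 6.68 under FPP-1746 and 70.7 under the fusion) and Il6 had the same order within 2-fold. The 3 genes past 2-fold between FPP-1746 and Omomyc were Ccl5 (77.5 FPKM with Omomyc, 36.3 with FPP-1746), Tigit (23.4 and 10.9) and Lsm5 (0.831 and 3.34), and Tigit stood at 60.6 FPKM with the fusion. These genes are all those past the rule or were named after their values were seen.

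**Figure D4:**
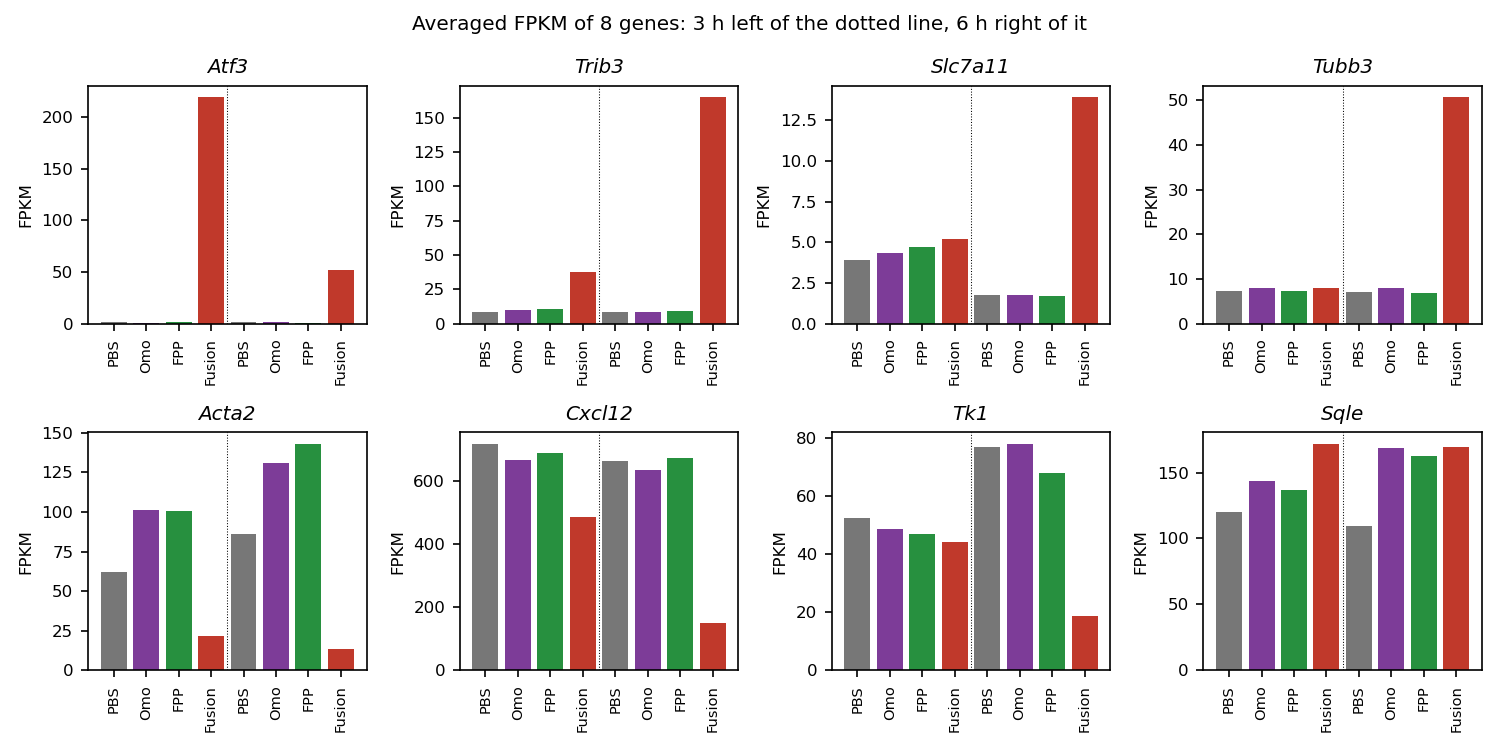
Bars give the averaged FPKM of 8 genes in all 8 groups from a zero baseline, 3 h left and 6 h right of the dotted line (Omo, Omomyc; FPP, FPP-1746; Fusion, FPP-1746-Omomyc). Atf3 is highest in the fusion at 3 h, Trib3, Slc7a11 and Tubb3 at 6 h, and the fusion bar of Cxcl12 and Tk1 is far below the rest at 6 h only.

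At 3 h the same comparison, which shares no column with that at 6 h, gave 957 calls (9.33%), 571 higher and 386 lower. Leaving out small RNAs, 301 genes were higher at both times, 46.7% of those higher at 6 h and 55.8% of those at 3 h. The lower genes overlapped less: 46 were lower at both times, 16.3% of those at 6 h and 12.9% of those at 3 h. For reference, of all 10122 genes 539 were higher and 356 lower at 3 h, and 644 (6.36%) and 282 (2.79%) at 6 h. Across the 10122 genes, which are not independent replicates and share library preparation and gene length, the ratios at the 2 times had Pearson's r = 0.51 and Spearman's rho = 0.36.

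Lists differed in their course over time. Some early genes had larger ratios at 3 h: the EGR, NR4A, IER and KLF median was 3.00 at 3 h and 2.02 at 6 h, and the median for MAP kinase inhibitors was 1.66 and 0.89, with 12 called higher at 3 h. Fos, at 170 FPKM with the fusion at 3 h and 27.5 at 6 h, had ratios of 6.74 and 4.02, and Atf3 ratios of 6.64 and 4.35. The AP-1 median was nearly level, at 1.86 and 1.78, and Fosl1 (0.21 and 1.04), Errfi1 (0.24 and 1.63) and Ramp3 (2.92 and 3.77) had larger ratios at 6 h. The ATF4 factors had 10 higher at 3 h and 13 at 6 h, with medians of 1.84 and 2.24: Trib3 increased from 1.84 (9.81 to 37.8 FPKM at 3 h) to 4.06, while Chac1 (4.13 and 2.94), Sesn2 (2.95 and 2.07) and Ppp1r15a (2.95 and 2.49) had larger ratios at 3 h. For amino acid supply, none of the synthesis enzymes, none of the tRNA synthetases and 2 of the transporters passed at 3 h, with medians of 0.48, 0.05 and 0.44. A ratio can also grow because the Omomyc column fell. From 3 h to 6 h Cth went from 95.7 to 36.2 FPKM with Omomyc and from 137 to 119 with the fusion. Errfi1 went from 205 to 76.1 FPKM and from 241 to 237 in the same order. Gpt2 instead increased with the fusion, from 58.8 to 86.6 FPKM, while Omomyc went from 37.5 to 20.4. Slc7a11 had a ratio of 0.22 at 3 h (4.36 to 5.23 FPKM), whereas the transporter gene Slc38a2 had 2.44 at 3 h and 1.31 at 6 h. Contractile genes had 10 lower at each time and medians of -0.83 and -0.87, and the lowest of them were lower still at 6 h: Acta2 (-2.17 and -3.18), Myl9 (-2.13 and -2.75) and Cnn2 (-1.77 and -2.46).

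Ribosomal protein and oxidative phosphorylation genes had medians of 0.59 and 0.53 at 3 h and of -0.15 and -0.31 at 6 h. The column sums moved in the same way: the fusion column summed to 594951 FPKM at 3 h, the highest, and to 445657 at 6 h, the lowest; their part in the shift was not tested. G1 and S phase genes had 1 member called lower at 3 h and 6 at 6 h, mitosis genes 6 and 4, with medians of -0.67 and -0.66. Tk1 (-0.14 and -2.00), Ccne1 (-0.53 and -2.00), Podnl1 (-0.66 and -2.30) and Cxcl12 (-0.45 and -2.07) passed at 6 h only, whereas Ccnd1 passed at both (-2.06 and -1.50).

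The genes whose ratio increased most from 3 h to 6 h included 3 that were not called lower at 3 h: Tubb3 (-0.03 to 2.51), Dennd2d (-0.22 to 2.06, shared locus) and Trib3 (1.84 to 4.06). The other 5 were called lower at 3 h and back near or above the Omomyc level at 6 h. Gemin4, a factor of snRNP assembly, stood at 24.3 FPKM with Omomyc and 5.06 with the fusion at 3 h, and at 26.2 and 32.4 at 6 h (-2.06 to 0.30). Jrk (-1.97 to 0.41, shared locus) and Mettl4 (-1.58 to 0.71) had the same course. Rbm12 (-1.42 to 1.01) and Ppp1r10 (-1.01 to 1.27), both at shared loci, were the only 2 genes outside small RNAs called in opposite directions at the 2 times. The ratio decreased most for Cxcl10 (4.40 to 1.17, shared locus), Fos, Dusp2 (2.77 to 0.06), Pnrc1 (3.85 to 1.22), Snhg9 (listed at 0 in both columns at 6 h and with Omomyc at 3 h), Cxcl1 (4.62 to 2.24), Dedd2 (3.40 to 1.03) and Sh3bp1 (0.54 to -1.76). Dusp2 stood at 33.1 FPKM with the fusion at 3 h and at 3.58 at 6 h, beside 3.41 with Omomyc.

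**Figure D5:**
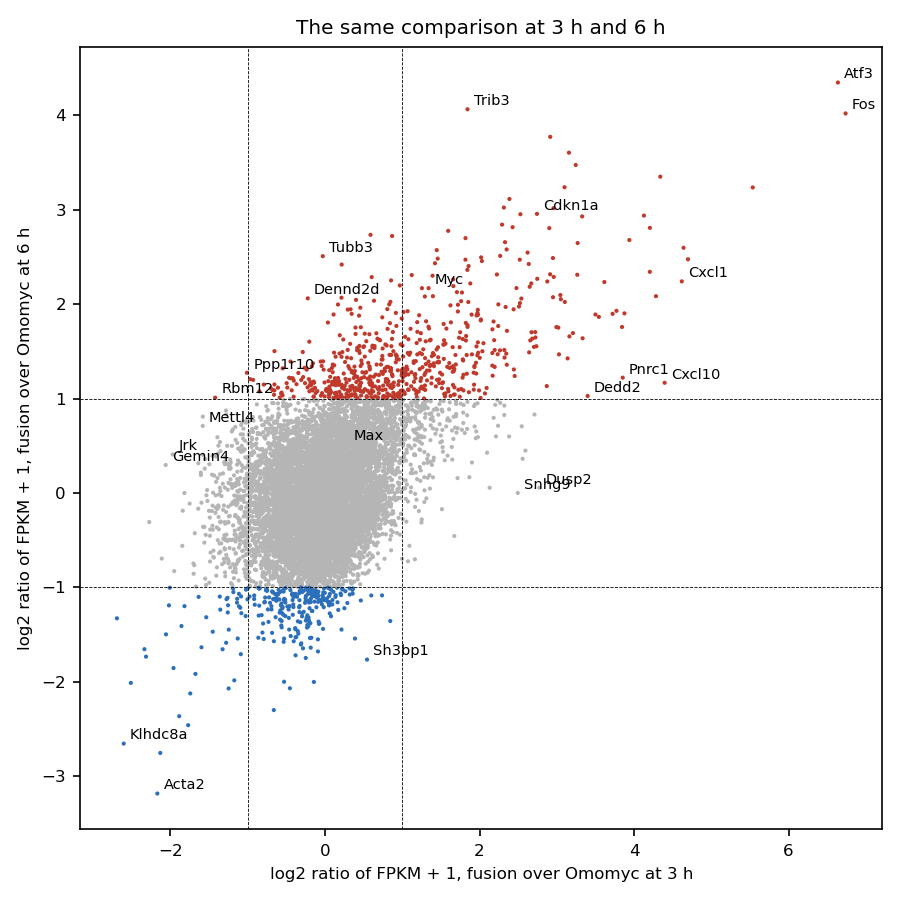
Each point is 1 of 10122 genes; the x axis is the log2 ratio of FPKM + 1, fusion over Omomyc, at 3 h and the y axis the same ratio at 6 h, with dashed lines at 2-fold and the 6 h calls in red and blue. Atf3 and Fos lie farthest to the right, Trib3 and Tubb3 lie higher on the 6 h axis than on the 3 h axis, and Gemin4 and Jrk were low at 3 h only.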

How the data were processed

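RNA-seq of T11 cells gave 1 table of mean FPKM for 8 groups, deposited by the authors; it holds 3 samples per mean and no single replicates. Per the submitters' processing notes, bcl2fastq 2.17.1.14, STAR 2.1.3, Cufflinks 2.2.1, Cuffnorm 2.2.1 and the build mm9 were used; their settings, the library scaling and any use of strand: not given in the sources used here. Fragment numbers behind a value are not given, and since each column averages 3 replicates no single step was read from the low values, so precision is unknown. RNA integrity was 10 in all samples, per the labels.

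From the deposited FPKM, log2 ratios of FPKM + 1 were taken (Python 3.11.15, pandas 2.3.3, numpy 2.4.6) for genes averaging 1 FPKM or more over the columns; just outside this limit lay Tcf7l1 (mean 0.998 FPKM) and just inside it Unc13c (1.00). Calls needed 2-fold. With 1 averaged column per group, no test was run. Members, comparison and the 45 gene lists and 5 marker lists were chosen with earlier results of these data known. Named were, small RNA and predicted records left out, the 15 highest and 15 lowest ratios past 2-fold, up to 4 members per list and direction past 2-fold, the 8 largest rises and falls of the ratio between 3 h and 6 h among genes called at either time, and Myc, Max and Cdkn1a. Other list members are named to give a list's range, a promoter match or a pass of the level filter only through the fusion columns. Positions are from the table in mm9, starts counted from 1; 1841 tested records are given with a locus that other genes share. Promoter letters are from RefSeq, GRCm38.p6. Alternatives were other pseudocounts, filters, scalings and folds, leaving out small RNAs or shared loci, and, added after seeing the data, the level filter on the 6 columns without the fusion.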

Additional observations from a re-analysis of the deposited data

How the results depend on the processing

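Of the counts at 6 h, 676 higher and 315 lower, those that moved by over 1.5 times were 348 and 137 with pseudocount 5, 1775 and 1513 at 1.5-fold, and 102 and 39 at 4-fold. The other alternatives gave counts within 1.5 times: pseudocount 0.1 gave 883 and 464, no filter 693 and 315, a mean of at least 5 FPKM 497 and 280, columns scaled to one median 564 and 430, quantile normalisation 668 and 407, leaving out shared loci 559 and 235, and a filter on the 6 columns without the fusion, added after seeing the data, 626 and 315. The share of calls that were higher was 68.2% as reported and 56.7% after scaling to one median. Of 148 named genes, 33 fell short of 2-fold under at least 1 alternative, 29 of them with pseudocount 5; with scaling 5 did and with quantile normalisation 6. Signs turned for Dusp2 (-0.0159 with scaling, -0.0373 with quantile normalisation) and for 3 list medians: CDK inhibitors (-0.0192 with no filter, -0.0567 with scaling), chemokines and cytokines (-0.00956 with a mean of at least 5 FPKM) and polyamine genes (-0.0132 with scaling, -0.12 without shared loci). The other 42 list medians did not take the opposite sign under any alternative run, though that of matrix proteases reached 0 with no filter; 30 medians moved by 0.1 or more under at least 1. The cause of these shifts was not tested. No paired analysis was possible because the table holds only group means, which also prevented leaving out a replicate.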

Other observations

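Genes outside the lists and the naming rule included Tsc22d3, a glucocorticoid-induced leucine zipper gene, at 14.4 FPKM under PBS, 16.1 under Omomyc, 13.6 under FPP-1746 and 116 under the fusion at 6 h, a log2 ratio over Omomyc of 2.78. At 3 h its ratio was 1.59. Sgk1, a serum- and glucocorticoid-induced kinase gene, stood at 71.7 FPKM with Omomyc and 310 with the fusion at 6 h (2.10), after a ratio of 3.05 at 3 h. Sox9, a lineage transcription factor gene, stood at 0.350 FPKM under PBS, 0.511 under Omomyc, 0.584 under FPP-1746 and 8.68 under the fusion at 6 h (2.68), and at 21.8 with the fusion at 3 h. Mat2a, which makes S-adenosylmethionine, was lower at both times, with ratios of -2.69 at 3 h and -1.33 at 6 h (72.0 to 28.1 FPKM). The 4 genes were chosen after their values were seen.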
